A study of Mus musculus with 8 samples.

Results

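The HOXA cluster and its MEIS and PBX cofactors were examined in mouse acute myeloid leukemia (AML) driven by MLL-AF9. The group was fixed by gene name and holds 10 genes of the 12823 rows in the count table, namely Hoxa3, Hoxa5, Hoxa6, Hoxa7, Hoxa9, Hoxa10, Hoxa11, Meis1, Pbx2 and Pbx3. All 10 passed the filter on low counts, which kept 12494 genes. MLL-AF9, a fusion of the genes Kmt2a and Mllt3, was carried into mouse bone marrow progenitors by a retrovirus that also expresses GFP, and leukemia was raised in sublethally irradiated C57BL/6 mice. GFP+ cells sorted from the bone marrow of these mice gave the 4 new AML libraries, with 0 serial transplantations. The 4 aggressive AML libraries came from GFP+ MLL-AF9 cells after 5 serial transplantations, which the methods describe as made into non-irradiated mice. The fusion and GFP are thus shared by both groups, the viral promoter rather than the Kmt2a promoter drives the fusion, and passage is the labelled difference. The labels give the samples as biological replicates but do not tie a library to a mouse, so the p-values measure the spread between these libraries.

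HOXA proteins are homeodomain transcription factors that are expressed in hematopoietic stem and progenitor cells and are switched off as myeloid cells mature. MEIS and PBX proteins belong to the TALE family of homeodomain proteins and bind DNA together with HOX proteins. Leukemias with MLL fusions are known for keeping the HOXA genes and Meis1 on, because the fusion protein and the elongation and DOT1L complexes it recruits act on their chromatin.

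Total counts lay between 7805544 and 9697777 per library, so that 1 count was worth between 0.1026 and 0.1296 CPM (the count of a gene scaled to the library total, with TMM factors that correct for composition). Of the tested genes, 2296 (18.4%) were called at an adjusted p under 0.05 (edgeR quasi-likelihood test with Benjamini-Hochberg adjustment over all tested genes), 1278 (10.2%) lower and 1018 (8.15%) higher in aggressive AML. The 4 Y-linked genes examined summed to between 251 and 287 CPM in the new AML libraries and had 0 counts in each aggressive AML library, where 0 allows up to 0.389 CPM per gene (3 counts, counting error only). The origin of the cells, loss of the Y chromosome and passage therefore cannot be told apart in any difference between the groups. The paper gives male mice for these libraries and describes the aggressive cells as passaged from the new ones. Neutrophil markers also moved with the group, with 9 of 12 lower and 1 higher in aggressive AML and a summed level of 455 to 630 CPM in new against 262 to 332 CPM in aggressive AML. Their part in the results for the Hox and TALE genes was not tested, and fewer cells of a type and less RNA per cell cannot be told apart in bulk samples. Sums were taken over all markers in the count table, tested or not. The 11 erythroid markers there (9 of 12 tested, 4 lower) held 35.9 to 125 CPM in new and 11.4 to 57.6 CPM in aggressive AML. The 5 macrophage markers there (4 of 10 tested, 1 lower) held 209 to 251 and 156 to 208 CPM. Few lymphoid markers were tested, 2 of 8 for T cells (1 higher), 2 of 7 for B cells (1 lower) and 1 of 7 for NK cells (1 higher), with summed levels of at most 45.4 CPM. The 1 of 6 megakaryocyte markers tested was not called by edgeR, DESeq2 or limma, at an unadjusted p under 0.05 in edgeR.

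The 7 Hoxa members lie in the HOXA cluster on chromosome 6, within a 109 kb stretch from Hotairm1 to Hottip at chr6:52158524-52267603 (GRCm38, the build of mm10), all on the minus strand, so that transcription runs from Hoxa11 towards Hoxa3. MLL and its fusions retain the CXXC domain, a zinc finger domain that binds unmethylated CpG dinucleotides. The stretches upstream of the starts of the 4 Hoxa members that changed are therefore shown, with that of Hoxa9, the most highly expressed member, beside them. They are the 250 bases before each RefSeq start (GRCm38.p6), cut to bases outside annotated exons, written 5′ to 3′ on the minus strand with every CG in capitals. Hoxa10 has a distal and a proximal start, and both are given.
Hoxa5 (chr6:52204588-52204837): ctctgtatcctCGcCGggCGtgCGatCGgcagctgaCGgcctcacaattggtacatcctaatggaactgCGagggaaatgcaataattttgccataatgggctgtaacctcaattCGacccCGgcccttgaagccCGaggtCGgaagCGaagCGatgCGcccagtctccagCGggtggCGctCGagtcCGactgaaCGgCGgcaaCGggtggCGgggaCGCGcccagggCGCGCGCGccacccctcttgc
Hoxa6 (chr6:52208723-52208922): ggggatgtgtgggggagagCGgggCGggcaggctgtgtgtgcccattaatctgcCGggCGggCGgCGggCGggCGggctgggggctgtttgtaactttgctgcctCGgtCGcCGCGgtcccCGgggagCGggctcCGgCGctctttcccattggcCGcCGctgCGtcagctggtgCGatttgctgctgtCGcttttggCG
Hoxa9 (chr6:52227371-52227620): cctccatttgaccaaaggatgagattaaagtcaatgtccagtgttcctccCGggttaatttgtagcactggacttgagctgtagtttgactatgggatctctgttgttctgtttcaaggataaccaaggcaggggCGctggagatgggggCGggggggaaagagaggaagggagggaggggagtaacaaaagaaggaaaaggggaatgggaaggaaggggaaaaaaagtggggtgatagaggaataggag
Hoxa10 proximal start (chr6:52234940-52235189): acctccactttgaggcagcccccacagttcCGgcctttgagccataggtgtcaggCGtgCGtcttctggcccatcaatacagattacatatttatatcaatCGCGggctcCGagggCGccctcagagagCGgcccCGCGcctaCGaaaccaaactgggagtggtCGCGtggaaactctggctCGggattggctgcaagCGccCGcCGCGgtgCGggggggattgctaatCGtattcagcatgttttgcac
Hoxa10 distal start (chr6:52240855-52241104): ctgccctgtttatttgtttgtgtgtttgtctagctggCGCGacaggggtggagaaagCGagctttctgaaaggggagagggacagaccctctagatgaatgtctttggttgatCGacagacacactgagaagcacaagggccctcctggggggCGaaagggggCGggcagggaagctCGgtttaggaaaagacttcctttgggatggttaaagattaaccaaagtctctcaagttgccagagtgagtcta
Hoxa11 (chr6:52245817-52245968): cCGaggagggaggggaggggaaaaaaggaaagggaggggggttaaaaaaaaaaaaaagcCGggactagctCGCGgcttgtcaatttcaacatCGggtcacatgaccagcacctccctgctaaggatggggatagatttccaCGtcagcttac

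The Hoxa5 stretch holds 28 CG, a number that 7.61% of the 32851 promoters in the table reach within 250 bases. The Hoxa6 stretch shown holds 22 CG in 200 bases, and its whole window holds 24 (reached by 12%). The Hoxa9 stretch holds 3 CG, below the median of 6 over all promoters. Upstream of Hoxa10 there were 20 CG before the proximal start (reached by 17.9%) and 7 before the distal start (reached by 46.3%). The Hoxa11 stretch shown holds 6 CG in 152 bases, and its whole window, which overlaps exons of Hoxa11os and Gm28032, holds 13 (reached by 31.5%). The whole windows of Hoxa3, Hoxa7 and Pbx2, which were not called, hold 18, 7 and 27 CG (reached by 21.7%, 46.3% and 8.56%). That of Meis1, which was called higher, holds 13 (reached by 31.5%). A link between CG number and change was not tested. At least 1 CG was found in 92.1% of all promoters, and the letters say nothing of methylation or of binding in these cells.

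Of the 10 genes, 5 changed. Hoxa10 and Hoxa11 fell, and Hoxa5, Hoxa6 and Meis1 rose. Over all tested genes 18.4% were called. For 5 of the 10 genes, the same 5, no library of one group reached into the range of the other, beside 21.8% of all tested genes. The median log2 fold change of aggressive over new AML was 0.05 over the 10 genes and 0.00 over all tested genes.

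**Figure D1:**
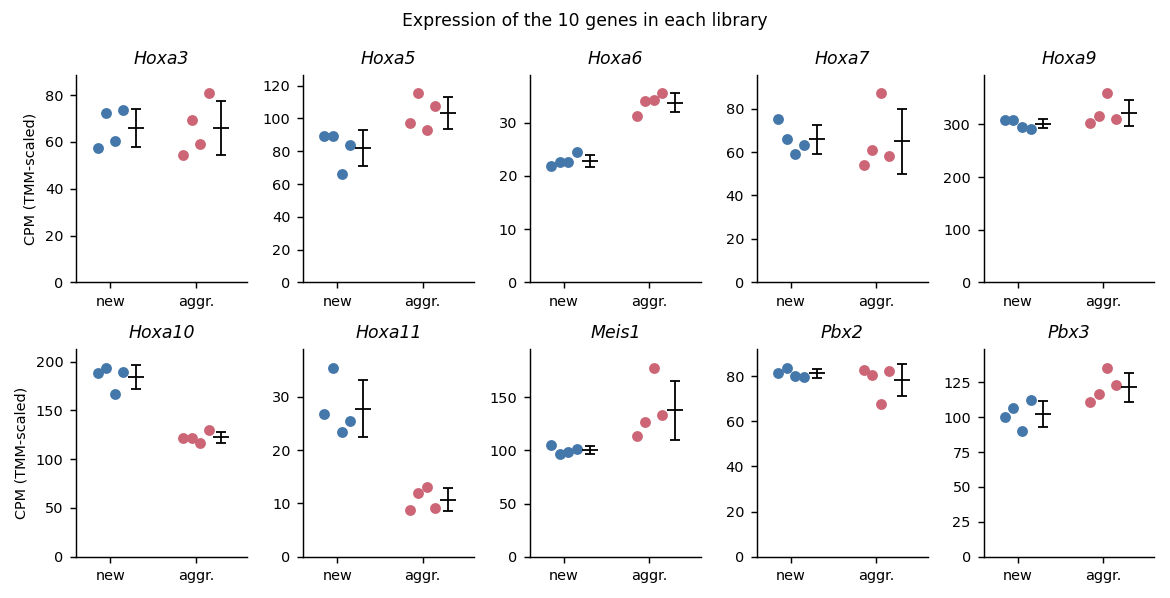
Expression of each of the 10 genes (y axis, TMM-scaled CPM from 0) in the 4 new AML (blue) and 4 aggressive AML (red) libraries, ordered by replicate number within a group, with the mean and SD in black. Hoxa10 and Hoxa11 lie lower and Hoxa5, Hoxa6 and Meis1 higher in every aggressive library than in any new one, and the ranges of the other 5 genes overlap.

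At the 5′ side of the cluster, Hoxa11 showed the largest fold change of the 10 genes. Hoxa11 (chr6:52242105-52245810) is a posterior HOXA gene best known for its part in limb, kidney and uterine development. Its level was 26.8, 35.4, 23.3 and 25.4 CPM in new AML replicates 1 to 4 and 8.67, 11.9, 13.1 and 9.10 CPM in aggressive AML replicates 1 to 4. All aggressive libraries lay below all new ones, and the highest aggressive value, 13.1 CPM, stood against a lowest new value of 23.3 CPM. The log2 fold change was -1.38 (SE 0.17, 95% interval -1.73 to -1.02, edgeR adjusted p = 5.54e-05), a fall of the mean from 27.7 ± 5.33 to 10.7 ± 2.14 CPM (SD, n = 4 each). The raw counts behind these values were 209 to 298 in new and 72 to 101 in aggressive AML. Of the exon bases of Hoxa11, 35.0% are shared with Hoxa11os, an antisense transcript. The strand setting of the counting was not stated, so reads over the shared bases cannot be assigned to either gene. Hoxa11os itself was counted at 3.05 ± 0.49 CPM in new and 1.95 ± 0.40 CPM in aggressive AML (SD, n = 4 each, edgeR adjusted p = 0.13).

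Hoxa10 (chr6:52231197-52240854) encodes a HOX protein that is active in myeloid progenitors, and none of its exon bases is shared with another gene. It stood at 188.5, 193.7, 166.3 and 189.6 CPM in the new AML libraries and at 121.5, 121.2, 116.7 and 130.2 CPM in the aggressive ones. The groups were apart, and within each group replicate 3 was the lowest. The mean went from 184.5 ± 12.4 to 122.4 ± 5.61 CPM (SD, n = 4 each), a log2 fold change of -0.59 (SE 0.08, 95% interval -0.75 to -0.43, edgeR adjusted p = 7.85e-05) or a change of -33.6%.

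Hoxa9 (chr6:52223097-52227370), the HOXA gene most closely tied to leukemia with MLL fusions, is the next gene in the cluster. Its level was 308.3, 308.4, 295.7 and 291.5 CPM in new and 301.9, 316.4, 358.5 and 309.5 CPM in aggressive AML. The ranges overlapped, and aggressive AML replicate 3 stood above the other libraries. The log2 fold change was 0.10 with a 95% interval of -0.06 to 0.25 (edgeR adjusted p = 0.384). Mir196b, a microRNA gene, shares 100% of its exon bases with Hoxa9 on the same strand, which are 1.52% of those of Hoxa9. Its row had 1.77 ± 0.34 CPM in new and 2.19 ± 0.80 CPM in aggressive AML (SD, n = 4 each, edgeR adjusted p = 0.584). These counts cannot be told apart from reads of Hoxa9 and are not a measure of the microRNA.

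Hoxa7 (chr6:52215623-52218573), another HOXA gene of hematopoietic progenitors, was measured at 75.03, 66.1, 59.2 and 63.1 CPM in new and 53.9, 60.9, 86.9 and 58.4 CPM in aggressive AML. Aggressive AML replicate 3 was again the highest of the 8 libraries, while aggressive replicates 1 and 4 lay below all new ones. The log2 fold change was -0.02 (95% interval -0.30 to 0.26, edgeR adjusted p = 0.932), and its sign turned when single libraries were left out. Hoxaas3, an antisense transcript, shares 20.4% of the exon bases of Hoxa7.

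Hoxa6 and Hoxa5 lie further along the cluster and rose. Hoxa6 (chr6:52204858-52208672) is one of the less studied HOXA genes of blood cells. It was at 21.9, 22.6, 22.5 and 24.4 CPM in new and 31.2, 34.0, 34.2 and 35.5 CPM in aggressive AML. Both groups were tight, with a coefficient of variation of 4.78% and 5.37%, and did not overlap. The mean rose from 22.9 ± 1.09 to 33.7 ± 1.81 CPM (SD, n = 4 each), with a log2 fold change of 0.56 (SE 0.10, 95% interval 0.35 to 0.78, edgeR adjusted p = 0.0014).

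Hoxa5 (chr6:52201754-52204587), a regulator of myeloid against erythroid fate in progenitors, stood at 89.1, 89.2, 65.9 and 83.5 CPM in new and 97.3, 115.2, 93.0 and 107.4 CPM in aggressive AML. The groups did not overlap, but the lowest aggressive library (93.0 CPM) was close to the highest new one (89.2 CPM). The log2 fold change was 0.33 (SE 0.10, 95% interval 0.11 to 0.56, edgeR adjusted p = 0.0363). This call depended on single libraries. The adjusted p was 0.0794 without new AML replicate 3 (log2 fold change 0.24), 0.0697 without new replicate 4 (0.34), 0.111 without aggressive replicate 2 (0.28) and 0.066 without aggressive replicate 4 (0.32).

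Hoxa3 (chr6:52169059-52213067), an anterior HOXA gene known for its role in the thymus and in blood-forming endothelium, had 57.6, 72.2, 60.3 and 73.8 CPM in new and 54.5, 69.2, 59.2 and 80.7 CPM in aggressive AML. The ranges overlapped over most of their length. The 95% interval of the log2 fold change was -0.26 to 0.26 around a value of 0.00 (edgeR adjusted p = 1.0). Hoxa3 spans several other genes of the cluster, and 27.1% of its exon bases are shared with other genes, among them Hoxaas2 and Hoxaas3.

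**Figure D2:**
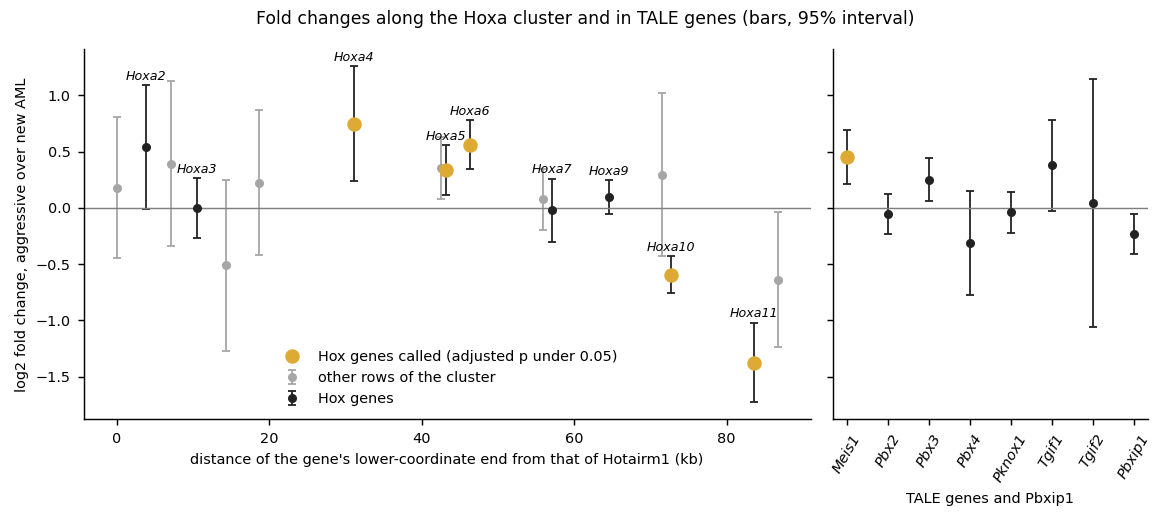
Log2 fold change of aggressive over new AML (y axis, bars are 95% intervals) for the tested rows of the HOXA cluster against the distance of each gene's lower-coordinate end from that of Hotairm1 in kb (left), and for the TALE genes with Pbxip1 (right). Hox genes are black, other rows gray, and called Hox genes and Meis1 gold. Hoxa4, Hoxa5 and Hoxa6 lie above 0, as does Hoxa2, which was not called. Hoxa3, Hoxa7 and Hoxa9 lie near 0, and Hoxa10 and Hoxa11 below 0.

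Along the chromosome the called genes fell into stretches, with Hoxa4, Hoxa5 and Hoxa6 higher, Hoxa7 and Hoxa9 not called, and Hoxa10 and Hoxa11 lower in aggressive AML. Of the 17 tested rows of the cluster, these 5 were called, beside 18.4% of all tested genes. Hoxa3, whose RefSeq span runs across Hoxa4, Hoxa5 and Hoxa6, was not called. Hoxa4, a low-level neighbor of Hoxa5, was counted at 4.91 ± 1.04 CPM in new and 8.25 ± 2.35 CPM in aggressive AML (SD, n = 4 each), a log2 fold change of 0.75 (SE 0.24, edgeR adjusted p = 0.0424). Its call was lost in 6 of the 8 fits that left out a library, namely those without new replicate 1, 2 or 4 (adjusted p 0.119, 0.071 and 0.102) and without aggressive replicate 2, 3 or 4 (0.0717, 0.112 and 0.066). Hoxa2, an anterior gene known for hindbrain patterning, had 6.72 CPM in new and 9.80 CPM in aggressive AML and was not called (log2 fold change 0.54, edgeR adjusted p = 0.161).

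None of the 8 noncoding rows of the cluster was called by edgeR, DESeq2 or limma, and 2 had an unadjusted p under 0.05 in edgeR. Hoxaas3 had 15.2 ± 0.44 CPM in new and 19.5 ± 2.36 CPM in aggressive AML (SD, n = 4 each), with a log2 fold change of 0.36 (edgeR adjusted p = 0.0656). Its RefSeq span overlaps Hoxa3, Hoxa5 and Hoxa6, while the members whose exons it overlaps in GENCODE are Hoxa3 and Hoxa7. Hoxaas2 stood at 0.39 (adjusted p = 0.458), Hotairm1 at 0.18 (0.712) and Mira at 0.08 (0.713) on the log2 fold change scale. Outside the cluster, of the 5 nearest tested genes on each side 2 of 10 were called, near the 18.4% of all tested genes. Snx10, a sorting nexin, was lower (log2 fold change -0.44, adjusted p = 0.00398). The low-level row 4921507P07Rik, at 3.72 CPM in new and 7.91 CPM in aggressive AML, was higher (1.09, adjusted p = 0.00556). These genes can be far away. Counted from the lower end of the cluster, the start of Snx10 lies at -634.6 kb, that of 4921507P07Rik at -1562 kb and that of Chn2 at 1881 kb. Skap2, Cbx3 and Hnrnpa2b1 on the lower-coordinate side had log2 fold changes of 0.17, 0.08 and 0.01. Hibadh, Gm33047, Tax1bp1, 4921529L05Rik and Chn2 on the higher-coordinate side had log2 fold changes of -0.10, 0.22, 0.24, 0.85 and 0.23, with edgeR adjusted p of 0.058 or more. Genes of the HOXB, HOXC and HOXD clusters were not analysed here.

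Among the cofactors, Meis1 (chr11:18880428-19019651), the TALE gene that accelerates HOXA9-driven leukemia and marks stem-like leukemia cells, rose. Its level was 105.2, 97.0, 98.3 and 101.1 CPM in new and 113.1, 126.6, 177.6 and 133.2 CPM in aggressive AML. The groups did not overlap, and the aggressive libraries spread more widely, with a coefficient of variation of 20.3% against 3.62% and replicate 3 well above the others. The mean went from 100.4 ± 3.63 to 137.7 ± 27.9 CPM (SD, n = 4 each), a log2 fold change of 0.45 (SE 0.11, 95% interval 0.21 to 0.70, edgeR adjusted p = 0.0117). Without aggressive replicate 3 the log2 fold change was 0.31 and the gene was still called. Of its exon bases, 18.3% are shared with the predicted genes Gm16140 and Gm37818.

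Pbx3 (chr2:34171457-34372045), the PBX partner most tied to HOXA9 in leukemia, had 99.97, 106.8, 89.9 and 112.1 CPM in new and 111.2, 116.5, 135.4 and 122.9 CPM in aggressive AML. The ranges overlapped because new replicate 4 lay above aggressive replicate 1. The log2 fold change was 0.25 (SE 0.09, 95% interval 0.06 to 0.44), with an unadjusted p of 0.0136 and an adjusted p of 0.0645 in edgeR, and an adjusted p of 0.0466 in DESeq2.

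Pbx2 (chr17:34592259-34597400), a widely expressed PBX gene, was at 81.3, 83.7, 79.9 and 79.8 CPM in new and 82.5, 80.6, 67.8 and 82.2 CPM in aggressive AML. Aggressive replicate 3 was the lowest of the 8 libraries and the other 7 lay between 79.8 and 83.7 CPM. The log2 fold change was -0.05 (95% interval -0.23 to 0.13, edgeR adjusted p = 0.707), and without aggressive replicate 3 it was 0.01.

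None of the 5 other TALE genes and TALE partners that were tested was called by edgeR, DESeq2 or limma, and 1 of them, Pbxip1, a PBX-binding protein, had an unadjusted p under 0.05. Pbxip1 stood at 159.0 ± 17.9 CPM in new and 135.3 ± 3.77 CPM in aggressive AML (SD, n = 4 each, log2 fold change -0.23, adjusted p = 0.0681). The TALE repressors Tgif1 and Tgif2 had log2 fold changes of 0.38 and 0.05, Pknox1 of -0.04 and Pbx4 of -0.31, with adjusted p of 0.183, 0.962, 0.798 and 0.343. Meis2, Meis3 and Pknox2 were not analysed here.

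Levels of different genes were compared per length, as CPM divided by the length in kb of the longest annotated transcript with a RefSeq match. Averaged over the 8 libraries, Hoxa9 was the highest at 96.5 CPM per kb (range 90.4 to 111.1), followed by Hoxa10 at 59.8 (45.5 to 75.5), Hoxa5 at 49.3 (35.1 to 61.4), Pbx3 at 40.9 (32.9 to 49.5) and Meis1 at 35.6 (29.0 to 53.1). Hoxa7 at 32.6 (26.8 to 43.3), Hoxa6 at 32.4 (25.0 to 40.6), Pbx2 at 26.0 (22.1 to 27.3) and Hoxa3 at 25.4 (21.0 to 31.1) came next, and Hoxa11 was the lowest at 8.40 (3.79 to 15.5). The range over the libraries separated Hoxa9 from Hoxa10 and Hoxa3 from Hoxa11, and all other neighbors in this order overlapped. In new AML Hoxa10 lay above Hoxa5 in every library, at 71.9 ± 4.82 against 43.6 ± 5.86 CPM per kb. In aggressive AML the means were 47.7 ± 2.19 for Hoxa10 and 55.0 ± 5.32 for Hoxa5 (SD, n = 4 each). The ranges overlapped, but Hoxa5 lay above Hoxa10 within each of the 4 aggressive libraries, so that the order of the pair was reversed. Meis1 and Hoxa7 also changed places, with Meis1 below Hoxa7 in all 4 new libraries (means 30.0 and 32.8 CPM per kb) and above it in all 4 aggressive ones (41.1 and 32.4). Hoxa6 had a mean of 26.1 CPM per kb in new AML, beside 26.5 for Pbx2, and of 38.6 in aggressive AML, above the means of Hoxa7 and Pbx2 (25.5). The gaps were small in places, at 49.56 for Hoxa5 against 45.51 for Hoxa10 in aggressive replicate 3. For Meis1 and Hoxa7 in new replicate 3 the values were 29.36 and 29.48 CPM per kb. The orders depend on the transcript length taken for each gene. Hoxa10 has a distal and a proximal start, and other lengths were not tried. These orders are a description and were not tested.

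**Figure D3:**
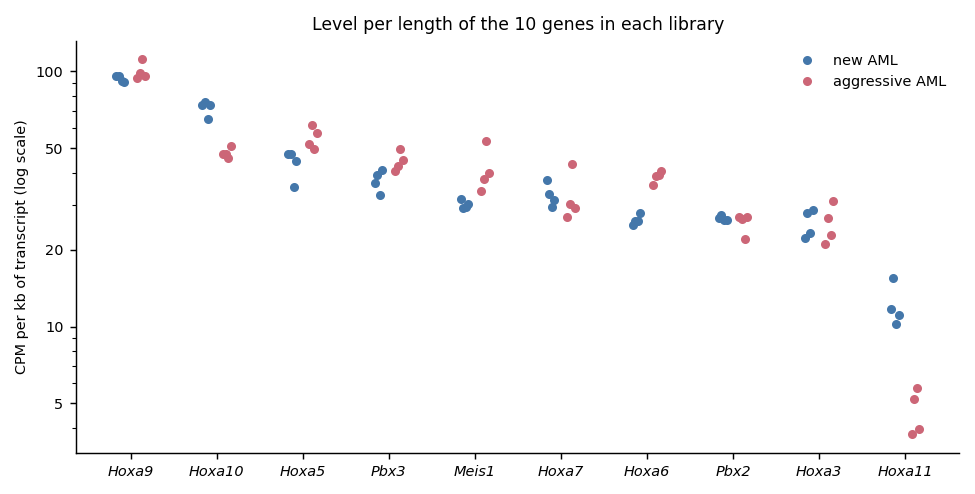
Level of the 10 genes in each library in CPM per kb of transcript (y axis, log scale), ordered by the mean over the 8 libraries, with new AML in blue and aggressive AML in red. Hoxa9 lies above all other genes in both groups, with 90.4 to 111.1 CPM per kb, and Hoxa11 below them.

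The sum over the 7 Hoxa members was 305.0 ± 17.6 CPM per kb in new and 303.0 ± 16.1 CPM per kb in aggressive AML (SD, n = 4 each), with ranges of 280.3 to 320.7 and 280.1 to 317.2. The make-up of this sum differed between the groups. Hoxa10 held 23.5% ± 0.37 of the sum in new and 15.7% ± 1.16 in aggressive AML, and Hoxa11 held 3.96% ± 0.59 and 1.53% ± 0.25 (SD, n = 4 each). Hoxa6 held 8.59% ± 0.64 and 12.7% ± 0.37, and Hoxa5 14.2% ± 1.20 and 18.1% ± 1.81. Hoxa9 had the largest share in both groups, 30.6% ± 1.47 in new and 32.9% ± 1.72 in aggressive AML. The shares of Hoxa7 (10.7% and 10.6%) and Hoxa3 (8.34% and 8.37%) were nearly equal in the groups. These shares are a description of the same counts, depend on the same transcript lengths and were not tested.

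**Figure D4:**
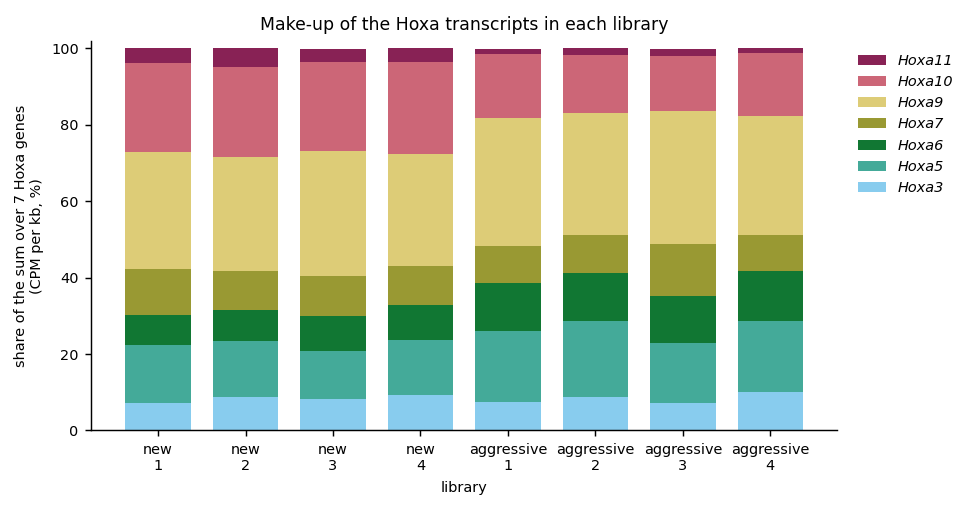
Share of each of 7 Hoxa genes in their summed CPM per kb (y axis, %, each bar adds up to 100) for the 8 libraries. The Hoxa10 part is 23.1% to 24.0% of the bar in new AML and 14.3% to 16.9% in aggressive AML.

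Ratios of read counts within a library do not depend on the scaling between libraries. The ratio of Hoxa10 to Hoxa9 was 0.612, 0.628, 0.562 and 0.65 in the new AML libraries and 0.403, 0.383, 0.326 and 0.421 in the aggressive ones. It was lower in all 4 aggressive libraries than in any new one, with a difference of -0.68 on the log2 scale (exact two-sided permutation test over 70 choices of libraries, p = 0.0286, the smallest this design allows, and 0.0429 adjusted over 3 ratios). The ratio shows that the pair changed unequally, and not which of them moved.

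The ratio of Meis1 to Hoxa9, a pair of partners on DNA, was 0.341, 0.315, 0.332 and 0.347 in new and 0.375, 0.400, 0.495 and 0.431 in aggressive AML. All aggressive libraries lay above all new ones, by 0.34 on the log2 scale (exact permutation p = 0.0286, adjusted p = 0.0429). Without any single new AML library p was 0.0571, with differences of 0.354, 0.315, 0.341 and 0.361 without new replicates 1 to 4. The ratio of Pbx2 to Pbx3 was 0.813, 0.784, 0.888 and 0.712 in new and 0.742, 0.692, 0.5 and 0.669 in aggressive AML. These groups overlapped, and the difference of -0.31 on the log2 scale did not pass the test (exact permutation p = 0.0571, adjusted p = 0.0571).

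**Figure D5:**
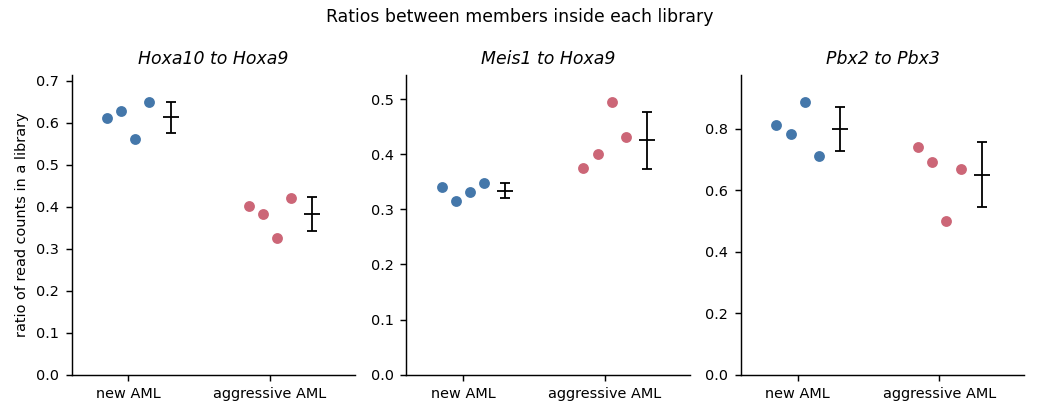
Ratio of read counts (y axis, from 0) of Hoxa10 to Hoxa9, Meis1 to Hoxa9 and Pbx2 to Pbx3 in each library of new AML (blue) and aggressive AML (red), with the mean and SD in black. The first ratio is lower and the second higher in every aggressive library, and the third overlaps between the groups.

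Within the aggressive group, replicate 3 had the highest level of 5 of the 10 genes, among them Hoxa7, Hoxa9, Meis1 and Pbx3, and the lowest level of 3, among them Pbx2. Replicate 1 had the lowest level of 7. After the group means were subtracted, Hoxa7 and Hoxa9 had the highest correlation among pairs of members over the 8 libraries (Pearson r = 0.958), followed by Hoxa7 and Meis1 (0.924) and Hoxa9 and Meis1 (0.899), while Meis1 and Pbx2 had r = -0.916. Among the 9288 genes with a mean of at least 10 CPM, those most like Hoxa9 by the same measure were Ece1 (r = 0.984), Trerf1 (0.969), Manea (0.967), Ap3s1 (0.965) and Cirbp (0.961). For Hoxa7, Hoxa9, Meis1 and Pbx2, aggressive replicate 3 was the library furthest from its group mean. Hoxa9 was at 358.5 CPM there against 301.9 to 316.4 CPM in the other aggressive libraries. Pbx2 was at 67.8 CPM against 80.6 to 82.5 CPM. The correlations of these genes thus rest largely on that library, and they were not computed without it. All these values describe 8 libraries, share their depth and scaling, and were not tested.

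A list of genes known from general knowledge as targets of HOXA9 and MEIS1 was set beside the members. Of its 16 genes 15 were tested, of which 3 rose and 1 fell, beside 8.15% and 10.2% of all tested genes, and the median log2 fold change was 0.07 against 0.00. Igf1r, the receptor for insulin-like growth factor, went from 61.6 ± 5.94 to 141.0 ± 16.5 CPM (SD, n = 4 each), with a log2 fold change of 1.20 (SE 0.10, edgeR adjusted p = 1.19e-06). Kit, the stem cell factor receptor, rose by 0.65 (adjusted p = 0.0014) and Mef2c, a transcription factor of myeloid progenitors, by 0.62 (adjusted p = 0.00109) on the log2 scale. Camk2d, a calcium-dependent kinase, fell by 1.24 on the log2 scale from 4.71 to 2.01 CPM (edgeR adjusted p = 0.0185, and 0.0535 without aggressive replicate 1).

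Of 28 chromatin and elongation factors known to act on HOXA genes, 4 fell and 2 rose, beside 10.2% lower and 8.15% higher among all tested genes, with a median log2 fold change of -0.01. Their number called was near the share over all genes, and the called genes are named by the rule alone. Ezh2, the methyltransferase of the Polycomb complex that silences HOX genes, had a log2 fold change of -0.77 (adjusted p = 0.00048). Kat6a, an acetyltransferase that activates HOX genes, was at -0.45 (0.00326), and Men1, the menin scaffold that ties MLL to chromatin, at -0.45 (0.024). The elongation factor gene Mllt1 was at -0.33 (0.0461). The subunits of the MLL complexes Ash2l and Wdr5 were at 0.88 (1.51e-05) and 0.27 (0.0238). Without single libraries the adjusted p of Men1 reached 0.0553 (without new replicate 1) and 0.0757 (new replicate 2). That of Mllt1 was 0.138, 0.0873 and 0.0878 without new replicates 1, 2 and 3, and 0.0612, 0.101 and 0.0747 without aggressive replicates 1, 3 and 4. That of Wdr5 was 0.0701 and 0.0772 without new replicates 2 and 4, and 0.0556 and 0.0601 without aggressive replicates 1 and 2.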

How the data were processed

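RNA of 8 libraries, 4 of new and 4 of aggressive AML, was compared. The authors sorted GFP+ cells, sequenced polyadenylated RNA from both ends, aligned the reads to mm10 with HISAT2, summarized them per gene with Rsubread and filtered out genes of low expression. The deposited values are whole-number read counts per gene with a different total in each library, although the table is named for CPM. The annotation and the strand setting were not stated. A minimum of 1 CPM in 4 or more of the 8 libraries kept 12494 genes and left out 329. These were fitted in edgeR 4.0.16 (R 4.3.3) by quasi-likelihood, with TMM scaling and group as the sole term. Two-sided p-values were adjusted after Benjamini and Hochberg, and 0.05 was the threshold. Alternatives were limma (3.58.1) on log2(CPM + 1) and log2(CPM + 0.5), DESeq2 (1.42.0), other scalings, no filter, a replicate block and leaving out each library. The steps were tested on simulated data.

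The members and lists were chosen with earlier results of these data known. Every member was named, and of the other lists the called genes, the HOX and TALE genes, the 5 nearest tested genes on each side of the cluster and the 5 genes most like Hoxa9. The lists cover the HOXA cluster, TALE genes, targets, regulators, 7 blood cell types and Y-linked genes. Exon overlaps and lengths came from GENCODE and gene spans and promoters from RefSeq, both on GRCm38. Of the 10 members, 9 had a promoter in the RefSeq table. No pair of replicates agreed within sampling noise (lowest chi-square per degree of freedom 4.04). The labels record no batch or date. Some genes of these families are not reported here.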

Additional observations from a re-analysis of the deposited data

Results flagged for a closer look

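Pbx2 in aggressive AML replicate 3 was set apart within its group, at 67.76 CPM against 80.57 to 82.52 CPM in the other 3, a gap of 0.868 of the whole range of the group. Of 20 groups examined (10 genes in 2 groups) this was the 1 value set apart, and chance alone sets apart about 1 in 20. The same library had the highest level of Meis1, Hoxa7, Hoxa9 and Pbx3 in its group.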

How the results depend on the processing

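Hoxa6, Hoxa10, Hoxa11 and Meis1 kept their direction and their call in all 15 alternatives, with log2 fold changes of 0.535 to 0.598, -0.638 to -0.567, -1.48 to -1.24 and 0.311 to 0.538. Hoxa5 kept its direction in all 15 (0.243 to 0.383) and its call in 11, and Pbx3 was called in DESeq2 alone (0.256, adjusted p = 0.0466). Genes with a fold change near 0 changed sign. Hoxa3 was at 0.00499 with DESeq2, 0.0172 with upper-quartile scaling and 0.00377 with no filter. When single libraries were left out, Hoxa3 ranged from -0.107 to 0.0811, Hoxa7 from -0.189 to 0.0592 and Pbx2 from -0.0781 to 0.013. None of these passed the test, and the cause was not tested. The number of called genes was 2538 with DESeq2, 2312 with upper-quartile scaling, 2274 with library size alone, 2355 with no filter and 2321 and 2309 with limma, and 1534 to 2381 without single libraries. Of Hoxa members and cofactors, 2 were lower in each of these fits and 2 to 4 higher.

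Same-numbered libraries had correlations of 0.0967, -0.0399, -0.0654 and 0.204 after the group means were subtracted, with 2 of 4 numbers best matched by their own. With 4 libraries per group this check can neither show nor exclude a pairing, and the main test used none. With the replicate block 2367 genes were called, with 2 members lower and 3 higher. Permuted within the block, the ratio of Hoxa10 to Hoxa9 (-0.683) and that of Meis1 to Hoxa9 (0.343) both had an exact permutation p of 0.125, the smallest that 16 sign changes allow. Without single libraries the ratio of Meis1 to Hoxa9 differed by 0.267 to 0.401 on the log2 scale, with an exact permutation p of 0.0571 without any single new AML library, and the cause was not tested. Genes under about 10 CPM, such as Hoxa2, Hoxa4, Hotairm1, Hoxaas2, Mir196b and Hoxa11os, rest on few counts and have wide intervals.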
